A study of Mus musculus with 6 samples.

Results

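The 8 genes described here encode proteins that stitch the sarcomere together: the myosin-binding proteins C (Mybpc1, Mybpc2 and Mybpc3), the myomesins of the M-band (Myom1 and Myom2), the giant protein titin (Ttn), and nebulin (Neb) with its cardiac relative nebulette (Nebl). All probe sets that the array's annotation names with 1 of these symbols were taken, which gave 20 of the 45037 probe sets tested. The samples were whole hearts of mice at postnatal day 10, from 3 miR-1-2 knockout mice and 3 wild-type mice, with 1 array per mouse. The miR-1-2 gene encodes the muscle microRNA miR-1, which is abundant in heart, and the comparison asked which heart transcripts differ without this gene. Strain, sex and the design of the knockout allele were left unstated in the sources used here. Values are log2 expression values from RMA, a method that corrects background, gives all arrays one distribution and combines the signals of the probes in each set. A difference of 1 on this scale is a doubling, and levels of different probe sets cannot be set against each other.

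In the sarcomere, myosin is packed into thick filaments that pull on thin filaments of actin. Myosin-binding protein C decorates the thick filament and tunes its cross-bridges. It exists as a slow skeletal form (Mybpc1), a fast skeletal form (Mybpc2) and a cardiac form (Mybpc3), which is a frequent site of mutations in hypertrophic cardiomyopathy. Myomesins cross-link thick filaments at the M-band in the middle of the sarcomere. Titin runs from the Z-disc to the M-band as a molecular spring, and nebulin and nebulette lie along the thin filament from the Z-disc.

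No member passed the test between the genotypes. The 2 that stood furthest apart were the fast skeletal Mybpc2 and the dim Neb, both lower in knockout hearts but neither past the adjusted threshold. With limma, a linear model that shares variance between probe sets, and Benjamini-Hochberg adjustment over all 45037 probe sets, 0 of the 20 member probe sets reached an adjusted p of 0.05, where 0.00666% of all probe sets did. At an unadjusted p under 0.05 there were 2, Mybpc2 and Neb, or 2 of 20, where the background is 3.94%. These were also the 2 members whose groups did not overlap, both lower in knockout, and 0 were apart in the other direction. Among all probe sets, 4.65% were apart and lower in knockout and 4.05% apart and higher. Of the 20, 9 had a higher and 11 a lower knockout mean. Their median log2 difference was -0.013, against -0.0064 for all probe sets. Only spread between single mice stands behind each test, and the small number of arrays limits the precision.

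**Figure D1:**
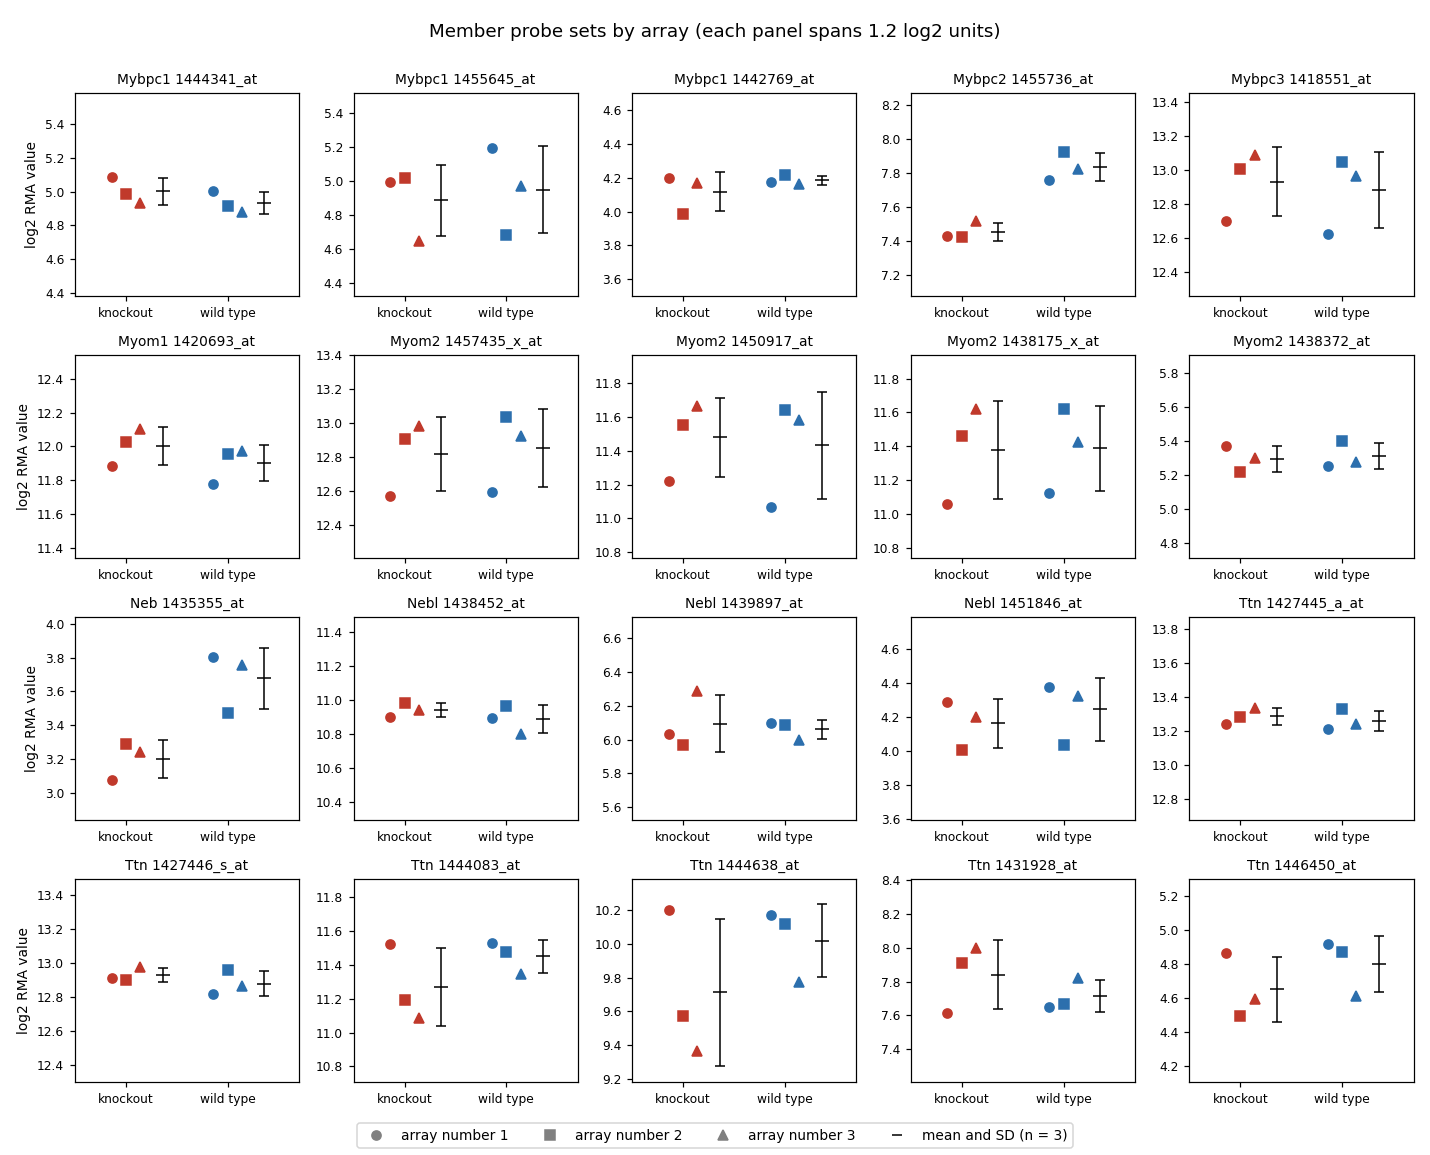
Each panel shows the log2 RMA values of 1 member probe set in the 3 knockout hearts (red, left) and the 3 wild-type hearts (blue, right), with marker shapes for the array number and black bars for the mean and SD (n = 3). The y axes differ in level but all span the same height. Mybpc2 and Neb have all knockout values below all wild-type values, and in the other panels the groups overlap.

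The hearts differed in more than genotype. Some fat markers were high on both arrays numbered 1. Ucp1, which uncouples respiration in brown fat, was at 10.39 in knockout and 9.45 in wild type there, and between 5.22 and 6.68 on the other 4 arrays. Adipoq, the fat hormone adiponectin, named after its values were seen, was at 7.32 and 6.85 on the knockout and wild-type arrays numbered 1, and between 3.68 and 3.86 on the rest. Xist, an RNA made from the inactive X, was low in knockout replicates 1 and 3 (7.55 and 7.57) and between 11.91 and 12.19 elsewhere, and Eif2s3y, a Y-linked gene, was at 7.63 and 8.35 in these hearts and between 2.85 and 3.16 elsewhere, so by these genes the sexes were not balanced between the genotypes. No value of the deleted microRNA was used here, and the labels were not checked on it. Of 10 genes taken as markers of ventricular heart muscle, 0 were below the array median on all arrays. Myl2, the ventricular regulatory light chain, was the brightest, between 14.39 and 14.52 on the 6 arrays. Of these 10, 8 were higher and 2 lower in knockout. With limma 0 passed and 1, higher in knockout, had an unadjusted p under 0.05, where 4.10% of all genes did. In whole hearts, fewer cells of a type and less RNA per cell cannot be told apart.

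For 4 members whose values are given in full further on, the 250 bases before a transcript start are shown, because Mybpc2 is the member with separate groups well above background and Mybpc3, Myom1 and Ttn have probe sets that stood lowest or highest on both arrays numbered 1. The sequences are RefSeq's for GRCm38.p6, and windows were found for 6 of the 8 genes. They lie at chr7:44524670-44524919 on the minus strand for Mybpc2, chr2:91117894-91118143 on the plus strand for Mybpc3, chr17:71019307-71019556 on the plus strand for Myom1 and chr2:76982548-76982797 on the minus strand for Ttn. The start used for Myom1 lies 16225 bases inside the annotated gene. Capitals mark matches, on either strand, to the MEF2 and CArG (serum response factor) consensus motifs, to the M-CAT letters CATTCC, to the GATA letters AGATAA (also with T as the first letter or G as the last), and to the TATA letters TATAAA.
Mybpc2: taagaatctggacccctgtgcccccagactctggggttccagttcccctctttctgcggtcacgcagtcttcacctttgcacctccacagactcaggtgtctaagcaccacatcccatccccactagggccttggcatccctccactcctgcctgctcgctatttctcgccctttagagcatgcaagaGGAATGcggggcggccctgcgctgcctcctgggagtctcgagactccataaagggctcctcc
Mybpc3: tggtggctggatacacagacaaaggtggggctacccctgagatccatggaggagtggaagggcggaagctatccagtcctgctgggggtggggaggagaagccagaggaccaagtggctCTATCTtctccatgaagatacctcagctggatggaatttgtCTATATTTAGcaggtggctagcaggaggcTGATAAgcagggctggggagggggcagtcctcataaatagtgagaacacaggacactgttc
Myom1: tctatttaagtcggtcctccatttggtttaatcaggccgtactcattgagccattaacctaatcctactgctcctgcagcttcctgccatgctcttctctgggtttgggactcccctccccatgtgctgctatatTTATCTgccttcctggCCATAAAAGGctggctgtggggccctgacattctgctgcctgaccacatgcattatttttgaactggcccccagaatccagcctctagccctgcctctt
Ttn: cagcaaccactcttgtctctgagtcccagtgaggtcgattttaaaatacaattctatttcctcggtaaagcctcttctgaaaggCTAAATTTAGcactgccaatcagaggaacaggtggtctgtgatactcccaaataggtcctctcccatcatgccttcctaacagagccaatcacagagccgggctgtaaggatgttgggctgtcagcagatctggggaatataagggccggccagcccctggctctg

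Mybpc3 held a MEF2 match at positions -90 to -81, counted back from the start, and GATA matches at -131 to -126 and -61 to -56. Ttn held a MEF2 match at -166 to -157. Myom1 held a CArG match at -99 to -90 and a GATA match at -115 to -110. The only capitals of Mybpc2 are an M-CAT match on the opposite strand at -62 to -57. Among 32851 windows of this length in the table, 2.92% held a MEF2 match, 1.47% a CArG match, 12.6% an M-CAT match, 26.5% a GATA match and 12.4% a TATA match. No match of these motifs overlapped another in these 4 windows, and a match describes letters, not binding of a factor.

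Mybpc2, the fast skeletal form of myosin-binding protein C, had values of 7.43, 7.42 and 7.52 in knockout hearts, against 7.76, 7.93 and 7.82 in wild-type hearts. Every knockout heart lay below every wild-type heart, and the spread within each group was small beside the gap. The means were 7.46 ± 0.05 in knockout and 7.84 ± 0.08 in wild type (SD, n = 3 each), a log2 difference of -0.38 ± 0.08 (SE), or 0.768 of the wild-type level. The unadjusted p was 7.1e-04 and the limma adjusted p was 0.804, so the difference did not pass over all probe sets. In the 19 alternative fits it lay between -0.42 and -0.32, with adjusted p-values from 0.101 to 1.00.

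Because Mybpc2 is known from fast skeletal fibres, markers of skeletal muscle are given beside it. Of 20 measured, 13 were below the array median on every array, 6 were higher and 14 lower in knockout, and 0 had an unadjusted p under 0.05 with limma, where 4.10% of all genes did. Their mean level ran from 5.53 to 5.62 in knockout hearts and from 5.57 to 5.67 in wild-type hearts, ranges that overlap. Casq1, the calcium-storing calsequestrin of fast fibres and the brightest of them, was at 8.74, 8.51 and 8.51 in knockout and 9.15, 8.60 and 8.50 in wild type. Myl1, a myosin light chain of fast fibres, had the widest range and differed by -0.42 ± 0.25 (SE), with overlapping groups. The part of skeletal muscle RNA in the Mybpc2 difference was not tested.

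Mybpc3, the cardiac form, was at 12.70, 13.01 and 13.08 in knockout hearts and 12.62, 13.05 and 12.97 in wild-type hearts. The lowest value of each group came from the array numbered 1, and the groups overlapped throughout. The log2 difference was 0.05 ± 0.13 (SE; limma adjusted p = 1.00). Mybpc1, the slow skeletal form, had 3 probe sets, all below the array median on every array. The brightest, 1444341_at, stood at 5.09, 4.99 and 4.93 in knockout and 5.003, 4.91 and 4.88 in wild type, a difference of 0.07 ± 0.08 (SE). The other Mybpc1 probe sets differed by -0.06 ± 0.14 and -0.07 ± 0.08 (SE), and no difference was detectable for Mybpc1 at this signal.

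Neither myomesin passed the test. Myom1, which is found in all striated muscle, was at 11.88, 12.03 and 12.10 in knockout hearts and 11.78, 11.96 and 11.97 in wild-type hearts. Knockout values ran slightly higher but overlapped those of wild type, with a log2 difference of 0.10 ± 0.09 (SE; limma adjusted p = 1.00). Without wild-type replicate 1 that difference was 0.042, and without knockout replicate 1 it was 0.16.

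Myom2, also called M-protein, is the myomesin of adult heart and fast fibres. Its brightest probe set, 1457435_x_at, was at 12.57, 12.91 and 12.98 in knockout and 12.59, 13.04 and 12.93 in wild type. The means, 12.82 ± 0.22 and 12.85 ± 0.23 (SD, n = 3 each) in knockout and wild type, differed by -0.03 ± 0.14 (SE), well inside the spread of either group. A further pair of bright probe sets, 1450917_at and 1438175_x_at, differed by 0.05 ± 0.16 and -0.01 ± 0.16 (SE). The fourth, 1438372_at, was below the array median on every array and differed by -0.02 ± 0.08 (SE). The _x_at probe sets can share probes with other transcripts, and their groups overlapped, as did those of 1450917_at.

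Neb was the member with the largest difference in size, and it sat at the bottom of the scale. Its values were 3.08, 3.29 and 3.24 in knockout hearts, against 3.81, 3.47 and 3.76 in wild-type hearts. The groups did not overlap, but the lowest value on each array was between 2.64 and 2.76, so these are signals near background. The means of 3.20 ± 0.11 in knockout and 3.68 ± 0.18 in wild type (SD, n = 3 each) gave a log2 difference of -0.48 ± 0.10 (SE), with an unadjusted p of 0.0014 and a limma adjusted p of 0.927. Over the alternatives the difference ran from -0.62, with the replicate block and without the arrays numbered 2 (adjusted p = 0.0521), to -0.35, without both arrays numbered 1 (adjusted p = 0.404 with no block, a fit chosen after seeing the data).

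By the brightest probe set of each of the 8 genes, Neb also spanned the widest range over the 6 arrays. Of 1512 other genes with a mean of at least 6 and enough range, the 3 whose values followed Neb most closely were Trim54 (Pearson r = 0.95), Tppp3 (0.94) and Inpp4b (0.91), as a description over 6 arrays that share their genotype groups. Trim54, a RING-finger ubiquitin ligase of muscle that binds microtubules, was at 5.85, 6.29 and 6.30 in knockout and 7.21, 7.04 and 7.09 in wild type. Tppp3, a tubulin-binding protein, was at 7.81, 8.07 and 7.86 in knockout and 8.35, 8.25 and 8.35 in wild type. Since these genes were chosen for following Neb, whose groups were apart, their own separation gives no independent support to that of Neb. Trim54 is also on the list of titin and M-band partners described below.

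Nebl, the nebulin-like protein of the cardiac Z-disc, showed one of the steadiest levels of the group. Its brightest probe set, 1438452_at, was at 10.90, 10.98 and 10.94 in knockout hearts and 10.90, 10.96 and 10.80 in wild-type hearts. The values overlapped within a narrow band, and the log2 difference was 0.06 ± 0.07 (SE; limma adjusted p = 1.00). The dimmer probe sets 1439897_at and 1451846_at differed by 0.03 ± 0.09 and -0.08 ± 0.11 (SE). The annotation of promoters lists 4 starts for Nebl, which also makes the shorter protein lasp-2, and which of its transcripts each probe set reads was not examined.

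**Figure D2:**
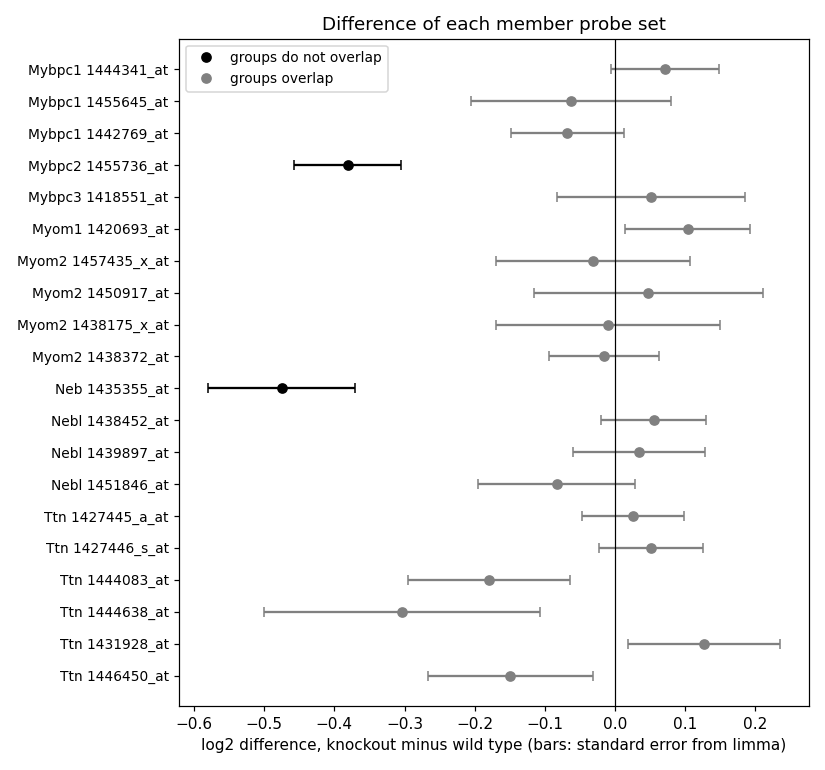
The log2 difference (knockout minus wild type, x axis) is shown for each of the 20 member probe sets (rows), with bars for the limma standard error and black points where the groups do not overlap. Mybpc2 at -0.38 and Neb at -0.48 stand apart from the others, which lie between -0.30 and 0.13.

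Ttn was read by 6 probe sets, and they did not all behave alike. Which titin transcripts each probe set reads was not examined. The brightest, 1427445_a_at, was at 13.24, 13.28 and 13.34 in knockout hearts and 13.21, 13.33 and 13.24 in wild-type hearts. It differed by 0.03 ± 0.07 (SE), and 1427446_s_at, made from the same sequence record, by 0.05 ± 0.07. Both sets of values overlapped between genotypes, and the differences lay within the spread between hearts.

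The Ttn probe set 1444638_at gave lower signal in some knockout hearts, at 10.20, 9.57 and 9.37, against 10.17, 10.11 and 9.77 in wild-type hearts. Knockout replicates 2 and 3 lay below all wild-type hearts, while knockout replicate 1 was the highest of the 6. The log2 difference was -0.30 ± 0.20 (SE; limma adjusted p = 1.00). Leaving out knockout replicate 1 gave -0.55 (adjusted p = 0.232) and leaving out knockout replicate 3 gave -0.13. Leaving out both arrays numbered 1 gave -0.47 (adjusted p = 0.399). With all 6 arrays and the replicate number as a block, the SE was 0.11, with a limma unadjusted p of 0.019 and an adjusted p of 0.682.

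Another titin probe set, 1444083_at, was also lowest in knockout replicates 2 and 3, at 11.52, 11.19 and 11.09 in knockout and 11.53, 11.47 and 11.34 in wild type. Here the difference was -0.18 ± 0.12 (SE), and over the 6 arrays these probe sets correlated at 0.99. The pair was singled out after its values were seen. Of the remaining titin probe sets, 1431928_at differed by 0.13 ± 0.11 and 1446450_at by -0.15 ± 0.12 (SE).

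The splicing factors that act on titin were read for the same comparison. Of 6 measured, 5 were higher and 1 lower in knockout, and with limma 0 passed and 0 had an unadjusted p under 0.05, where 0.00% of 18193 genes passed and 4.10% had an unadjusted p under 0.05. Rbm20, the factor best known for skipping titin exons, was at 10.35, 10.74 and 10.74 in knockout and 10.15, 10.55 and 10.55 in wild type. Both arrays numbered 1 were its lowest, and the difference was 0.19 ± 0.14 (SE). Between same-numbered arrays it was 0.20, 0.18 and 0.20, and with the number as a block its limma adjusted p was 0.584. Rbm24 differed by 0.14 ± 0.14 and Celf1 by 0.09 ± 0.08 (SE).

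Several members varied with the array number. In 7 of the 20 member probe sets the arrays numbered 1 were the lowest pair of the 6, where 14.7% of all probe sets show this. They were Mybpc3, Myom1, 3 of Myom2 and 1427445_a_at and 1431928_at of Ttn. In 3 of the 20 the arrays numbered 1 were the highest pair, where the background is 16.6%. These were 1444083_at and 1444638_at of Ttn and 1444341_at of Mybpc1. The mean of the arrays numbered 1 minus that of the other 4 was -0.37 for Mybpc3, -0.18 for Myom1, and between -0.47 and -0.38 for the bright Myom2 probe sets. Over the 6 arrays, Mybpc3, Myom1 and these 3 Myom2 probe sets correlated with each other at 0.79 to 0.99. With 1444638_at and 1444083_at of Ttn they correlated at -0.90 to -0.61. All these probe sets share the same 6 hearts, and they were grouped after their values were seen.

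**Figure D3:**
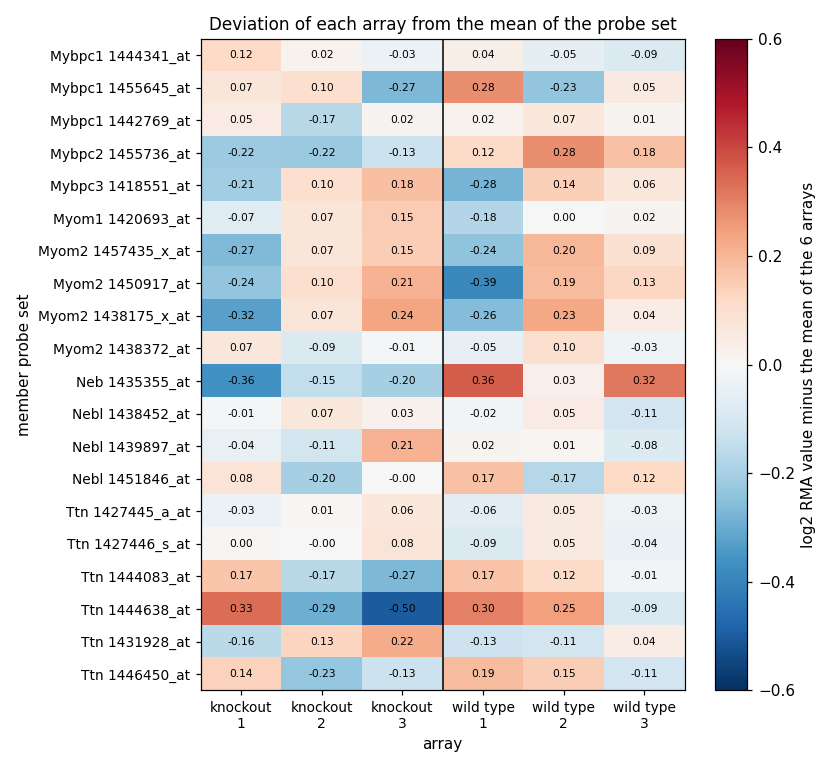
Rows are the 20 member probe sets and columns the 3 knockout arrays (left of the line) and the 3 wild-type arrays (right of it); colour and printed number give the log2 RMA value minus the mean of that probe set over the 6 arrays. Mybpc3, Myom1 and the bright Myom2 probe sets are blue in the columns of number 1 in both groups, and 1444638_at of Ttn is red there.

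The arrays numbered 1 are those with high Ucp1 and Adipoq. Of 9 measured brown fat markers, 3 (Ucp1, Adipoq and Cidea) were highest on these arrays and 1 (Prdm16) was lowest there. Among all probe sets, 16.6% were highest and 14.7% lowest there. Cox8b, the brightest, ran between 12.67 and 12.83 over the 6 arrays. The mean level of the 9, which Ucp1 and Adipoq move most, ran from 8.38 to 9.42 in knockout hearts and from 8.34 to 9.21 in wild-type hearts, with the upper end of each range on the array numbered 1. Other marker lists also held genes of this kind. Of 20 skeletal muscle markers, 5 were highest and 0 lowest on both arrays numbered 1. Of 10 ventricular markers, 0 were highest and 3 lowest there. Of 8 smooth muscle markers, 1 was highest and 2 lowest, and of 10 atrial markers, 0 were either. The part of fat tissue, or of any other feature of these arrays, in the levels of Mybpc3, Myom1, Myom2 and Ttn was not tested.

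No close relative of the members passed the test either. Of 8 measured, 4 were higher and 4 lower in knockout, with a median of 0.0087 beside 5.0e-04 for all genes. Nrap, a nebulin-related anchoring protein of the heart's intercalated disc, was at 8.38, 8.57 and 8.65 in knockout hearts and 8.71, 8.80 and 8.69 in wild-type hearts. Its groups did not overlap, and the difference of -0.20 ± 0.09 (SE) had an unadjusted p of 0.047 and a limma adjusted p of 1.00. Across genes, 8.86% had groups that did not overlap.

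Mybphl, a small relative of the myosin-binding proteins that is made mainly in atria, was at 8.10, 8.39 and 6.87 in knockout and 8.94, 7.93 and 8.47 in wild type. Knockout replicate 3 was far below the rest, and the difference of -0.66 ± 0.38 (SE) was within the spread. Of 10 measured atrial markers, a list that holds Mybphl, 9 had a lower knockout mean, 0 passed and 1 had an unadjusted p under 0.05, where 4.10% of all genes did, and knockout replicate 3 had the lowest level of several. Sln, the sarcolipin of atrial calcium handling, was at 10.79, 11.46 and 8.996 in knockout and 11.63, 10.78 and 11.56 in wild type. Nppa, atrial natriuretic peptide, was at 13.26, 13.42 and 12.16 in knockout and 13.60, 13.09 and 13.50 in wild type. The part of atrial tissue in the Mybphl values was not tested.

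Of the other relatives, Obsl1, a cytoskeletal adaptor of the M-band, differed by 0.16 ± 0.09 (SE) at its brightest probe set. Its dimmer sets 1427535_s_at, 1443510_at, 1436414_at and 1460414_at differed by 0.04 ± 0.09, -0.0043 ± 0.0698, -0.12 ± 0.09 and -0.15 ± 0.09 (SE), with overlapping groups. Myom3, the third myomesin, was below the array median on every array and differed by 0.13 ± 0.08 (SE). Speg, a kinase of the myosin light chain kinase family, differed by 0.033 ± 0.073 (SE). A dimmer Speg probe set, 1417305_at, was at 6.72, 6.88 and 6.96 in knockout and 6.31, 6.56 and 6.55 in wild type. Its groups did not overlap, and its difference of 0.38 ± 0.10 (SE) had a limma adjusted p of 1.00. The other Speg probe sets differed by 0.27 ± 0.16 and 0.27 ± 0.14 (SE), with overlapping groups. A dimmer Lasp1 probe set, 1456309_x_at, was also apart, at 9.38, 9.43 and 9.38 in knockout and 9.19, 9.27 and 9.27 in wild type. Its difference was 0.15 ± 0.07 (SE; limma unadjusted p = 0.056). All other Lasp1 probe sets had overlapping groups, with differences from -0.025 to 0.17. The dimmer Speg and Lasp1 sets were named after their values were seen, and 4.05% of all probe sets were apart and higher in knockout. Mybph, Mylk and Lasp1 differed by 0.0195 ± 0.1207, -0.0341 ± 0.0853 and -0.0021 ± 0.1194 (SE) at their brightest probe sets.

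In the wider sarcomere, limma without a block called 0 genes in any of the lists examined. Genes with an unadjusted p under 0.05 were 2 higher and 1 lower in knockout in the thick filament list. They were 0 higher and 1 lower for the thin filament, 0 and 2 for titin and M-band partners, and 0 and 2 for the Z-disc. Among all 18193 genes they were 398 higher and 348 lower. Over all genes, 4.10% had an unadjusted p under 0.05, the share to set beside each count here. Of 10 thick filament genes, 6 were higher and 4 lower in knockout (median 0.018), and 3 had an unadjusted p under 0.05: Myl12a, a regulatory light chain of non-muscle and smooth muscle myosin, at -0.26 ± 0.07 (SE), Myh7, the slow myosin heavy chain, at 1.58 ± 0.54, and Myl9, a smooth muscle light chain, at 0.23 ± 0.09. Myh7 was at 9.41, 10.91 and 11.59 in knockout and 8.18, 9.53 and 9.47 in wild type, with overlapping groups. With the replicate number as a block, Myh7 passed over genes (limma adjusted p = 0.0261), with differences of 1.23, 1.39 and 2.12 between same-numbered arrays. The numbers were not taken as pairs in the main fit. Of 15 thin filament genes, 6 were higher and 9 lower (median -0.011), with 1 under that p: Acta1, skeletal actin, at 10.13, 10.22 and 10.23 in knockout and 11.06, 10.62 and 10.47 in wild type. The next thin filament genes by p were the leiomodin Lmod3 (-0.17 ± 0.08) and the slow troponin I Tnni1 (0.85 ± 0.45), both with overlapping groups.

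Smooth muscle markers are given beside Myl9. Of 8 measured, 4 were higher and 4 lower in knockout, and 1 had an unadjusted p under 0.05, where 4.10% of all genes did. That was Acta2, smooth muscle actin and the brightest of the list, at 13.19, 13.23 and 13.12 in knockout and 12.89, 12.76 and 12.63 in wild type, with a limma adjusted p of 0.721 over genes. The part of smooth muscle in the Myl9 values was not tested.

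Proteins that bind titin or the M-band gave 11 higher and 9 lower of 20 measured (median 0.031), with 2 under an unadjusted p of 0.05, beside 4.10% of all genes. Trim54 differed by -0.97 ± 0.12 (SE; limma adjusted p = 0.334, or 0.0319 with the replicate number as a block). Csrp3, the muscle LIM protein of the Z-disc, was at 12.78, 12.80 and 12.81 in knockout and 13.07, 13.01 and 12.99 in wild type, a difference of -0.23 ± 0.07 (SE) with an adjusted p of 1.00. Tcap, the telethonin that caps titin at the Z-disc, differed by -0.26 ± 0.13 with overlapping groups.

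Z-disc genes numbered 23 measured, 11 higher and 12 lower, with 2 under an unadjusted p of 0.05, beside 4.10% of all genes. These were the kelch proteins Klhl41, at 8.46, 8.91 and 8.83 in knockout and 9.26, 9.14 and 9.13 in wild type, and Klhl40, which differed by -0.23 ± 0.08 (SE). Klhl40 is known, from work in mouse muscle, to stabilise nebulin and the leiomodin Lmod3, and Klhl41 also binds nebulin. Their adjusted p-values were 1.00, as was that of Cap2, an actin-regulating protein at 0.17 ± 0.08.

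**Figure D4:**
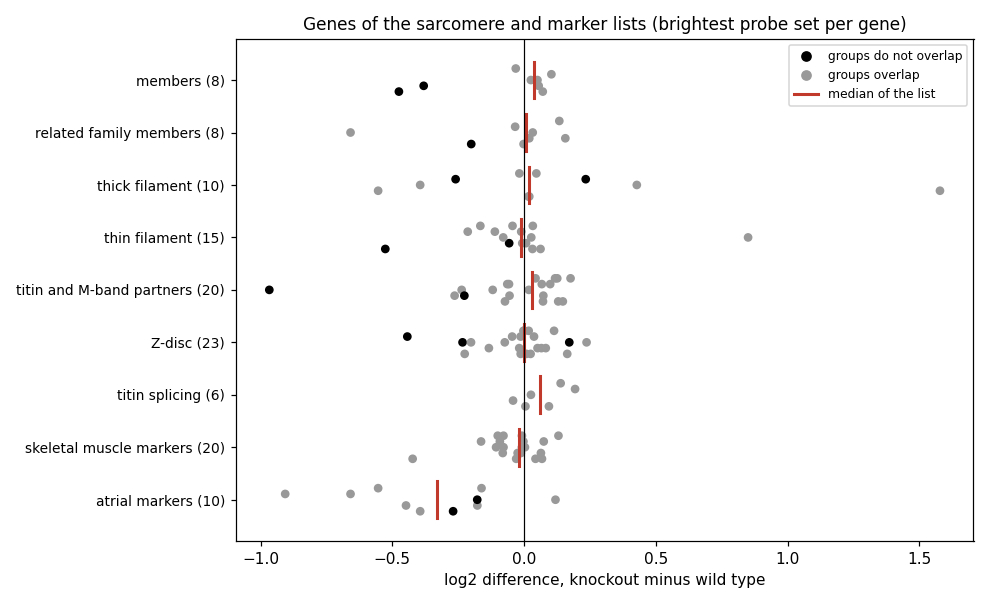
Points are genes, each by its brightest probe set, placed by the log2 difference (knockout minus wild type, x axis) in rows for each list, with the number measured in brackets; black points have groups that do not overlap and red lines are medians. The members and the sarcomere lists scatter on both sides of 0, and 9 of the 10 atrial markers lie left of it.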

How the data were processed

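Mouse heart RNA (Trizol) was amplified into biotin-labelled aRNA, per the labels' protocols, and arrays were read with GCOS 1.4 (source: the submitters' processing notes). The authors deposited log2 values from RMA in the affy package, per the series' design text. RMA gives every array one distribution, so a shift common to most genes cannot be seen, and arrays carry no read depth. The 64 control probe sets were left out. Samples were grouped by title. The 6 arrays correlated at 0.991 to 0.997 and 0 pairs were identical.

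Genotypes were compared in R 4.3.3 by limma 3.58.1 (lmFit, eBayes) without a block and with Benjamini-Hochberg adjustment over 45037 probe sets at a threshold of 0.05. For other genes, the brightest probe set that names 1 gene stood for each of 18193 genes, with symbols updated by identifier through RefSeq (18031 matched), and p-values were adjusted over these. Of 131 listed genes outside the members, 128 were measured. The steps were tested on simulated data with shifts larger than any member difference and noise drawn independently for each array. That test does not tell whether differences of the size seen in the members would be found. Members, lists and tests were chosen with earlier results of these data known. The text names every member and relative, the 3 smallest p-values of each sarcomere list, and markers by level and range. For the member with the widest span it also names the 3 genes with the highest correlation. Alternatives were 6 fits leaving out an array, fits with the replicate number as a block, other summaries per gene, quantile normalization, a filter on dim probe sets (mean of at least 6), a filter on ambiguous ones, other variance models and Xist as a covariate.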

Additional observations from a re-analysis of the deposited data

How the results depend on the processing

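Of the 20 member probe sets, 0 passed in any of the 19 alternative fits, by limma in each, and 10 kept their direction in every alternative that gave them a value, among them Mybpc2, Neb, Myom1 and 1444638_at and 1444083_at of Ttn. Of 346 recomputed values, 38 changed sign, none of them called in any fit, and the cause was not tested. Many of the 346 could not change. The replicate block on all arrays, the variance trend, the filters and 1 probe set per gene leave each difference as in the main fit. Nor could leaving out arrays change the sign for Mybpc2 or Neb, as their groups did not overlap. With single arrays left out, the count over all probe sets, 3 as reported, ran from 1 (without wild-type replicate 1, 2 or 3) to 15 (without knockout replicate 2, where the Xist level and genotype coincide). It was 20 with the replicate block, 55 with the block and without both arrays of number 2, 24 with array weights, 6 with a robust variance trend, and 0 with 1 probe set per gene, with a mean of at least 6, without _s_at and _x_at probe sets, and with Xist as a covariate. Xist was low only in knockout replicates 1 and 3, so with this covariate the genotype difference rests mainly on knockout replicate 2.

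Knockout and wild-type arrays share the numbers 1, 2 and 3. Over probe sets, deviations from the group means of same-numbered arrays correlated at 0.46, 0.15 and 0.087, and over genes at 0.54, 0.18 and 0.13. The third lies under 0.1 on the probe sets that were tested, so the numbers were not taken as pairs, while over genes all 3 lie above it and the blocked values that change a call stand beside the result. Knockout replicate 3 correlated better with wild-type replicate 2 (0.26), and knockout replicate 2 with wild-type replicate 3 (0.23). With the replicate block the adjusted p was 0.290 for Mybpc2 and 0.336 for Neb, and over genes Myh7 (0.0261) and Trim54 (0.0319) of the sarcomere lists passed.

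Sign changes by setting were as follows. With the block and without both arrays of number 1, and equally without these arrays and no block (added after seeing the data), 1455645_at of Mybpc1 was at 0.0067, 1450917_at of Myom2 at -0.0034 and 1438175_x_at at 0.016. With the block and without number 2, 1442769_at of Mybpc1 was at 0.013 and 1457435_x_at, 1438175_x_at and 1438372_at of Myom2 at 0.017, 0.065 and 0.068. With the block and without number 3, 1455645_at was at 0.067, 1439897_at of Nebl at -0.092 and 1427445_a_at of Ttn at -0.0094. The mean of all probe sets of a gene gave -0.020 for Mybpc1 and -0.072 for Ttn. Further quantile normalization gave 0.0091 for 1438372_at. Array weights gave 0.042 for 1457435_x_at and 0.11 for 1438175_x_at. Xist as a covariate gave 0.052 for 1455645_at, 0.063 for 1457435_x_at, 0.078 for 1438175_x_at and -0.089 for 1439897_at.

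Leaving out single arrays gave ranges of -0.20 to 0.060 for 1455645_at, -0.077 to 0.17 for Mybpc3, -0.16 to 0.093 for 1457435_x_at, -0.13 to 0.18 for 1450917_at and -0.14 to 0.15 for 1438175_x_at. They were -0.053 to 0.029 for 1438372_at, -0.060 to 0.099 for 1439897_at and -6.2e-06 to 0.059 for 1427445_a_at. Signal near background limits Neb, Mybpc1 and the dimmest probe sets of Myom2, Nebl and Ttn.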
